A study of Mus musculus with 17 samples.

Results

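How far ovaries of one genotype differ from each other was described gene by gene in ovaries that had lost the LH receptor gene Lhr and in ovaries that kept it. The 12 arrays compared, of 17 in the series, were 4 of Fshr-CAM/Lhr-null ovaries (replicates 1, 2, 3 and 5), 4 of Fshr-CAM ovaries and 4 of wild type ovaries. Fshr-CAM is a mutant genotype of the FSH receptor gene that the first and second of these groups share, and the sources used here do not spell out CAM. The Fshr-CAM and wild type arrays together are called Lhr-intact. All mice were females of 12 weeks from a cross of the FVB/N and C57/BL6 strains, and the labels give neither the stage of the estrous cycle nor whether each sample was a separate animal. A further array, Fshr-CAM/Lhr-null replicate 4, is not in this set. Its low Fshr signal had stood out in earlier work on the same data, so the 12 arrays were chosen with a measured value known. Its values are given beside the others, and the tests use all 13 arrays of these genotypes.

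LH from the pituitary acts through its receptor on theca cells, on granulosa cells of large follicles and on luteal cells. Its surge at mid-cycle starts ovulation and turns the ruptured follicle into a corpus luteum, which makes progesterone from cholesterol and later regresses. A cycling mouse ovary therefore holds follicles and corpora lutea whose number and age depend on the day of collection. The question asked was which genes, for example of corpora lutea, ovulation or the cell cycle, varied between ovaries with the receptor and were steady without it. In whole ovaries, fewer cells of a type and less RNA per cell cannot be told apart.

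Signals were log2 values from Illumina bead arrays, where a value near 4.5 is background. On the 13 arrays 20301 to 21603 of 45281 probes were detected at p under 0.05, and 11847 genes were measured, 9689 of them detected on all 13. Between arrays of one genotype, Pearson's r over these 9689 genes, which are not independent replicates, was 0.955 to 0.987 in Fshr-CAM/Lhr-null, 0.956 to 0.985 in Fshr-CAM and 0.965 to 0.985 in wild type. Fshr stood at 11.45, 11.44, 11.70 and 11.40 in Fshr-CAM/Lhr-null 1, 2, 3 and 5, at 9.71 in replicate 4, at 11.10 to 11.87 in Fshr-CAM and at 8.33 to 9.14 in wild type. Lhcgr, the symbol of the LH receptor gene, has no named probe here and was not analysed. The granulosa cell gene Inha stood at 13.56 to 13.92 in Fshr-CAM/Lhr-null, at 13.54 to 13.99 in Fshr-CAM and at 12.62 to 13.11 in wild type. The oocyte factor Gdf9 stood at 11.56 to 12.65, 9.63 to 12.02 and 11.09 to 11.92 in the same order, and the labelled tissue therefore showed its markers on every array.

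The typical gene varied less between the 4 Fshr-CAM/Lhr-null ovaries of the set, but not less than in wild type once replicate 4 was included. Over 11847 genes the median SD was 0.177 in Fshr-CAM/Lhr-null (replicates 1, 2, 3 and 5), 0.229 in Fshr-CAM and 0.208 in wild type, and 0.229 for Fshr-CAM and wild type with their residuals pooled. The SD was smaller in Fshr-CAM/Lhr-null than in the pooled Lhr-intact arrays for 66.1% of genes. An SD from fewer arrays has a lower median, so unequal group sizes raise this share even at equal spread. With 4 arrays on each side the share was 63.0% against Fshr-CAM and 57.6% against wild type. Against the pooled arrays it was 56.7% with replicate 4 included. With replicate 4 included, the Fshr-CAM/Lhr-null median was 0.209, next to the 0.208 of wild type. These SDs are a description, since the comparison was set up on these arrays.

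The distance of each array from its own genotype mean gave no difference past a test. The median over genes of the absolute deviation was 0.126, 0.116, 0.170, 0.201 and 0.163 on Fshr-CAM/Lhr-null 1 to 5, 0.228, 0.153, 0.161 and 0.174 on Fshr-CAM 1 to 4, and 0.146, 0.150, 0.156 and 0.194 on wild type 1 to 4. The means were 0.155 ± 0.0345 in Fshr-CAM/Lhr-null and 0.170 ± 0.0281 in Lhr-intact arrays (SD, n = 5 and 8), and an exact two-sided permutation test over 1287 assignments gave p = 0.403. The groups overlap: Fshr-CAM/Lhr-null 1 and 2 lay closest to their genotype mean of all 13 arrays, and Fshr-CAM 1 and Fshr-CAM/Lhr-null 4 lay farthest. Without Fshr-CAM/Lhr-null 4, which is the array set above, the difference was −0.0331, against −0.0151 with it. That set was chosen with a measured value of this array known, so its difference is a description without a test.

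**Figure D1:**
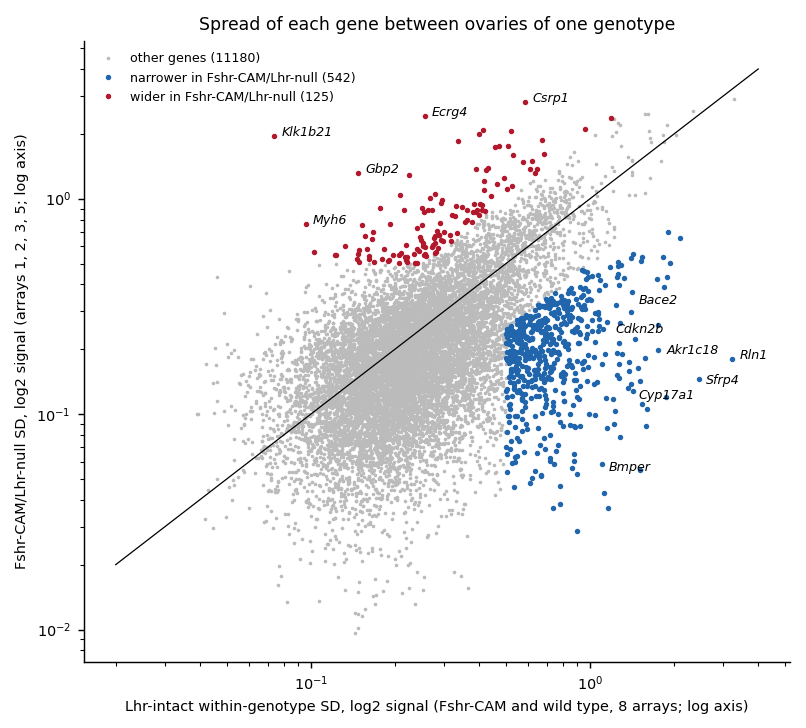
Each point is 1 of 11847 genes, placed by its within-genotype SD in Lhr-intact arrays (horizontal, log2 signal, log axis) and in Fshr-CAM/Lhr-null arrays 1, 2, 3 and 5 (vertical, log2 signal, log axis), with the line of equal SD. The 542 blue genes had an Lhr-intact SD of at least 0.5 and an Fshr-CAM/Lhr-null SD below 0.5 times it, and the 125 red genes met the same rule with the groups exchanged.

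A gene is called narrower in Fshr-CAM/Lhr-null where its Lhr-intact SD was at least 0.5 and its Fshr-CAM/Lhr-null SD was below 0.5 times that, and wider where the reverse held. By this rule 542 genes (4.57%) were narrower and 125 (1.06%) wider, the genes coloured in the scatter of SDs. These genes were selected on their SDs over the 12 arrays, so their SDs are a description with no test. The counts use 3 degrees of freedom in Fshr-CAM/Lhr-null and 6 in Lhr-intact, and an SD from fewer arrays scatters more in both directions, so pairs of genotypes with 4 arrays each were also counted. Set against Fshr-CAM alone, 673 genes (5.68%) were narrower and 196 (1.65%) wider in Fshr-CAM/Lhr-null. Against wild type alone, 472 (3.98%) were narrower and 222 (1.87%) wider, and 216 genes were narrower against each of these genotypes taken alone. Between the genotypes that both carry Lhr, 231 genes (1.95%) were narrower and 448 (3.78%) wider in Fshr-CAM than in wild type. With all 5 Fshr-CAM/Lhr-null arrays, 419 genes (3.54%) were narrower and 188 (1.59%) wider than in Lhr-intact ovaries.

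A gene at background has little room to vary, and 100 of the 542 narrower genes were not detected on every one of the 4 Fshr-CAM/Lhr-null arrays, 56 of them on none. The share of such genes over all measured genes is not given here, so these counts are not read as particular to narrower genes. Among the 9689 genes detected on all 13 arrays, 378 (3.90%) were narrower and 78 (0.805%) wider. At the edge of the rule, Paip1 lay just inside with an Lhr-intact SD of 0.5003 and Lrmda just outside with 0.4998. Stk35 lay just inside with an SD ratio of 0.498, and Ppp1r14a just outside with 0.5004.

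The array that lay farthest from its genotype mean was Fshr-CAM 1 for 242 of the 542 narrower genes (44.6%, against 24.7% over all genes), above it in 120 and below it in 122. Wild type 4 was farthest for 84 (15.5%, against 19.7% over all genes), Fshr-CAM 4 for 52 (9.59%, against 13.6%) and wild type 2 for 49 (9.04%, against 8.67%). These 3 arrays were therefore near or below their share over all genes. Without Fshr-CAM 1, 373 genes were narrower. The highest 3 of the 8 Lhr-intact arrays were Fshr-CAM 1, wild type 1 and wild type 3 in 82 of the 542 genes (15.1%, against 3.51% over all genes), and the lowest 3 were Fshr-CAM 1, wild type 2 and wild type 4 in 89 (16.4%, against 6.74%). In these patterns wild type 1 and 3 stood together opposite wild type 2 and 4, with Fshr-CAM 1 on either side.

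The test of spread was made on all 13 arrays, with limma on each array's absolute deviation from its genotype mean and Benjamini-Hochberg adjustment over 11847 genes. Against the pooled Lhr-intact arrays 0 genes passed as narrower in Fshr-CAM/Lhr-null (0%, lowest adjusted p = 0.0693, with 755 at an unadjusted p under 0.05) and 8 passed as wider (0.0675%, with 528 at an unadjusted p under 0.05). Against Fshr-CAM alone 28 were narrower (0.236%) and 6 wider (0.0506%), and against wild type alone 19 were narrower (0.160%) and 6 wider (0.0506%). Fshr-CAM against wild type had 11 narrower (0.0929%) and 12 wider genes (0.101%). On simulated data with equal spread this test gave small p-values more often than it should, and with deviations from the genotype median in place of the mean, 0 genes passed in each of the 4 comparisons. The counts leaned on single arrays. Against the pooled Lhr-intact arrays, leaving out 1 array gave up to 8 narrower genes (without Fshr-CAM 3, or without Fshr-CAM 4) and between 3 wider genes (without wild type 1, 2 or 3) and 35 (without Fshr-CAM/Lhr-null 2). Against Fshr-CAM the narrower count ran from 8 without Fshr-CAM/Lhr-null 5 to 148 without Fshr-CAM 2, and against wild type from 1 without Fshr-CAM/Lhr-null 1 to 77 without wild type 2.

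Gene lists were read by counts and medians, without a test. Of 21 lists with measured genes, 16 had a median SD ratio below 1 in Fshr-CAM/Lhr-null against Lhr-intact ovaries and 5 above 1. Over all genes the log2 of that ratio had a median of −0.340. Among the 16, the extracellular matrix (−0.211), lymphocyte (−0.151), adipocyte (−0.327) and red blood cell (−0.327) lists lay above that median. The steroid hormone synthesis list had the lowest list median, −1.82, followed by the spermatid list (−1.77), the corpus luteum list (−1.61), the cholesterol list (−1.44) and the oocyte list (−1.30). With replicate 4 included, the medians of these lists were −0.54, −0.69, −0.77, −0.69 and −0.72 in the same order. Their ranking therefore rests on leaving that array out. The highest were interferon response (0.85), macrophage (0.36) and surface epithelium (0.34). Among the 240 distinct list genes measured, 46 were narrower and 9 wider in Fshr-CAM/Lhr-null. Over all genes 542 of 11847 (4.57%) were narrower and 125 (1.06%) wider, the shares to set beside this count and the list counts below.

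**Figure D2:**
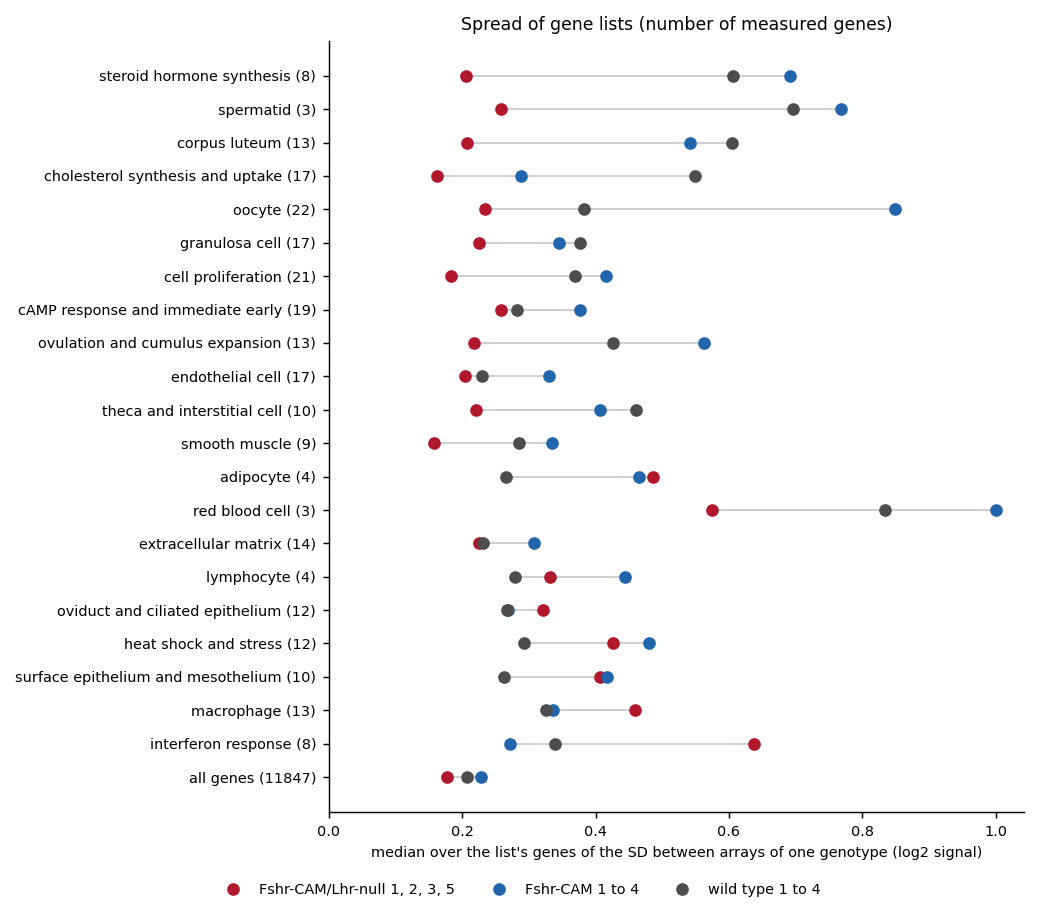
For each of 21 gene lists and, in the last row, all genes, with the number of measured genes in brackets, points give the median over its genes of the SD between arrays of one genotype (log2 signal). Red points are Fshr-CAM/Lhr-null 1, 2, 3 and 5, blue points Fshr-CAM and grey points wild type. Steroid hormone synthesis, corpus luteum and cholesterol genes lie to the left in Fshr-CAM/Lhr-null, interferon genes to the right, and the oocyte list is widest in Fshr-CAM.

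Corpus luteum genes differed widely between ovaries with Lhr. Of 13 measured, 6 were narrower in Fshr-CAM/Lhr-null and 0 wider, with a median SD of 0.21 in Fshr-CAM/Lhr-null, 0.54 in Fshr-CAM and 0.60 in wild type (0.39 with all 5 Fshr-CAM/Lhr-null arrays). Only 9 of the 13 were detected on all 13 arrays, and 3 of these were narrower. Genes at background without Lhr had little room to vary there, so their small SD is no sign of steady luteal expression. Akr1c18, the enzyme that inactivates progesterone when the corpus luteum regresses, stood at 5.03, 4.77, 4.80 and 4.54 in Fshr-CAM/Lhr-null and at 6.31 in replicate 4. It stood at 13.67, 13.71, 13.57 and 11.27 in Fshr-CAM and at 9.80, 14.32, 12.16 and 14.36 in wild type. Wild type 2 and 4 were thus far above wild type 1, Fshr-CAM 4 was the low array of its genotype, and no Fshr-CAM/Lhr-null array reached the level of any Lhr-intact one.

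Sfrp4, a secreted Wnt-binding protein of luteal cells, was at background in Fshr-CAM/Lhr-null, at 4.27 to 4.62. In Fshr-CAM it stood at 11.92, 7.27, 9.38 and 4.99 and in wild type at 8.95, 10.56, 6.26 and 7.95, so that Fshr-CAM 4 lay close to the Fshr-CAM/Lhr-null arrays and Fshr-CAM 1 far above them. The other narrower members of the list are named because they entered its count. Ptgfr, the receptor through which prostaglandin F2 alpha starts luteal regression, was also at background without Lhr (4.37 to 4.76) and spread over 7.30 to 8.39 in Fshr-CAM and 7.11 to 9.15 in wild type. Plin4, a lipid droplet protein, had an SD of 0.22 in Fshr-CAM/Lhr-null and 1.04 in Lhr-intact ovaries, Abcb1b, a membrane transporter, 0.28 and 0.86, and Scarb1, the receptor that takes up cholesteryl ester from HDL, 0.15 and 0.64. Abcb1b lay at 8.87 in Fshr-CAM 4 and at 10.45 to 11.11 on the other Fshr-CAM arrays. Akr1c18, Sfrp4 and Abcb1b therefore had their lowest Fshr-CAM value on the same array.

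Of 8 steroid hormone synthesis genes 5 were narrower in Fshr-CAM/Lhr-null, with a median SD of 0.21 in Fshr-CAM/Lhr-null, 0.69 in Fshr-CAM and 0.61 in wild type. Only 5 of the 8 were detected on all 13 arrays, and 2 of these were narrower. A gene near background has little room to vary, which limits what the count and median show. This list leans on replicate 4: with all 5 Fshr-CAM/Lhr-null arrays its median SD was 0.56, and 3 genes were narrower. Cyp17a1, which makes androgens in theca cells, stood at 13.26, 13.45, 13.44 and 13.59 in Fshr-CAM/Lhr-null and at 11.63 in replicate 4. In Fshr-CAM it stood at 11.78, 14.04, 13.86 and 13.15, and in wild type at 11.42, 13.33, 12.21 and 9.30. Unlike Akr1c18, Cyp17a1 was steady at a high level in the 4 Fshr-CAM/Lhr-null ovaries, and wild type 4, with the highest Akr1c18, had the lowest Cyp17a1.

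Star, which moves cholesterol into mitochondria for steroid synthesis, stood at 6.36, 6.38, 6.001 and 6.05 in Fshr-CAM/Lhr-null and at 4.77 in replicate 4, and was detected on 4 of these 5 arrays. Its values were 9.49, 9.71, 9.72 and 7.95 in Fshr-CAM and 10.16, 10.99, 10.27 and 9.73 in wild type, so Fshr-CAM 4 was again low. Hsd17b7, which acts in sterol and estradiol synthesis, had an SD of 0.25 in Fshr-CAM/Lhr-null and 0.88 in Lhr-intact ovaries. Cyp11a1, the side-chain cleavage enzyme that makes pregnenolone, was not narrower, with an SD of 0.21 in Fshr-CAM/Lhr-null and 0.27 in Lhr-intact ovaries. The spread was therefore not shared by all enzymes of the list. The theca list, which also holds Cyp17a1 and Star, had 3 of 10 genes narrower and 1 wider, the theca hormone Insl3. Of the 3, 1 was detected on all 13 arrays. With replicate 4 included, 1 theca gene was narrower, and the list's median SD was 0.48 in place of 0.22, against 0.38 in Lhr-intact ovaries. Insl3 stood at 11.08, 10.97, 12.10 and 8.01 in Fshr-CAM/Lhr-null and at 10.16 in replicate 4, against 7.66 to 8.69 in Fshr-CAM and 7.83 to 9.14 in wild type, and Fshr-CAM/Lhr-null 5 alone lay within the Lhr-intact range.

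**Figure D3:**
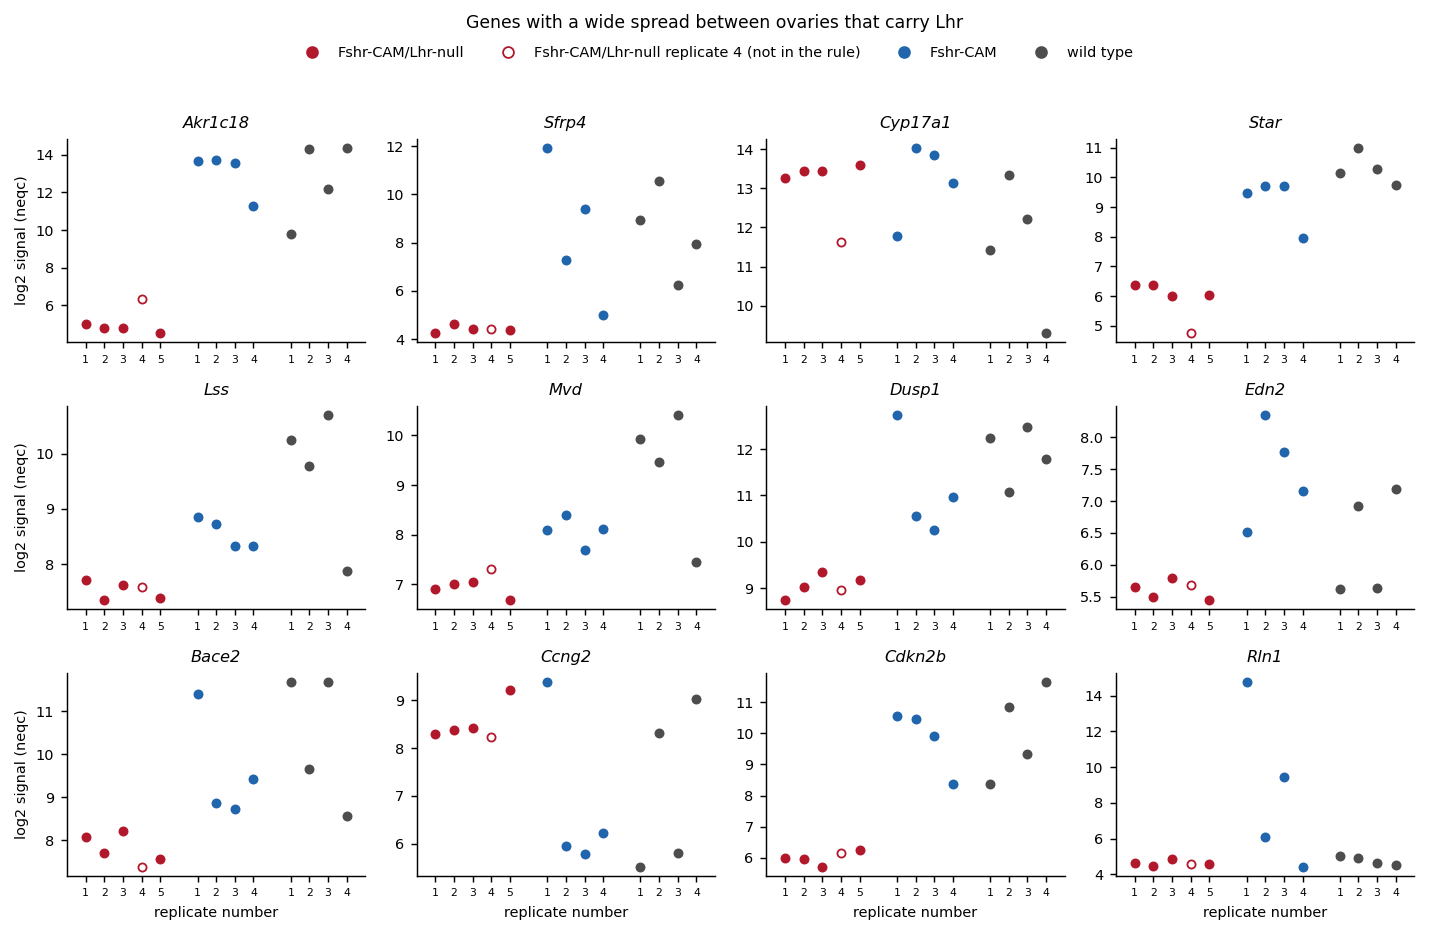
Log2 signal (vertical) of 12 named genes on each array, by replicate number (horizontal), with Fshr-CAM/Lhr-null in red (open symbol for replicate 4), Fshr-CAM in blue and wild type in grey. Akr1c18, Sfrp4 and Star are low on every Fshr-CAM/Lhr-null array, Cyp17a1 is high on 4 of them, and Bace2 is high on Fshr-CAM 1, wild type 1 and wild type 3.

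Cholesterol genes were spread mainly in wild type. Of 17 measured, 6 were narrower in Fshr-CAM/Lhr-null (Scarb1, Lss, Cyp51, Dhcr7, Mvd and Sc5d) and 0 wider, and the median SD was 0.16 in Fshr-CAM/Lhr-null, 0.29 in Fshr-CAM and 0.55 in wild type. The count rested on 1 array: without wild type 4 it was 1, and the list's median log2 SD ratio was −0.92 in place of −1.44 (−0.69 with Fshr-CAM/Lhr-null replicate 4). Lss, which closes the ring system of lanosterol, stood at 7.71, 7.35, 7.62 and 7.38 in Fshr-CAM/Lhr-null (7.59 in replicate 4), at 8.85, 8.72, 8.32 and 8.32 in Fshr-CAM and at 10.24, 9.77, 10.70 and 7.87 in wild type. Mvd, an enzyme of the mevalonate pathway, stood at 6.91, 7.01, 7.06 and 6.69 in Fshr-CAM/Lhr-null (7.32 in replicate 4), at 8.09, 8.39, 7.69 and 8.12 in Fshr-CAM and at 9.92, 9.45, 10.41 and 7.46 in wild type. In both genes wild type 4 lay below the Fshr-CAM arrays and the other wild type arrays above them. The second probe of Lss gave a smaller Lhr-intact SD of 0.26, and 0.14 in Fshr-CAM/Lhr-null. As a list mean, cholesterol genes ran from 7.75 to 7.84 in Fshr-CAM/Lhr-null (7.80 in replicate 4), from 8.34 to 8.86 in Fshr-CAM and from 8.49 to 9.69 in wild type.

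Ovulation and cumulus expansion genes, many of which the LH surge induces for some hours, gave 4 narrower genes of 13 and 0 wider, with a median SD of 0.22 in Fshr-CAM/Lhr-null, 0.56 in Fshr-CAM and 0.43 in wild type. Of the 4, 3 were detected on all 13 arrays. With replicate 4 included the Fshr-CAM/Lhr-null median was 0.34, and the list's median log2 SD ratio was −0.10 in place of −0.73. The surge genes Areg, Ereg, Ptgs2, Has2, Tnfaip6 and Pgr were not among the measured ones. Edn2, the endothelin made by granulosa cells at follicle rupture, stood at 5.65, 5.50, 5.79 and 5.45 in Fshr-CAM/Lhr-null (5.68 in replicate 4), at 6.51, 8.35, 7.77 and 7.16 in Fshr-CAM and at 5.62, 6.92, 5.63 and 7.19 in wild type. Wild type 1 and 3 were at the Fshr-CAM/Lhr-null level and wild type 2 and 4 above it. Nrip1, a nuclear receptor cofactor needed for ovulation, had the largest Lhr-intact SD of the list and was not narrower, with 0.89 in Fshr-CAM/Lhr-null and 1.10 in Lhr-intact ovaries. Ptx3, a cumulus matrix protein, and the surge-induced transcription factor Runx1 were narrower with SDs of 0.24 and 0.22 in Fshr-CAM/Lhr-null, against 0.62 and 0.57 in Lhr-intact ovaries. Rgcc, a cell cycle regulator, was the fourth, with 0.19 in Fshr-CAM/Lhr-null, although its replicate 4 stood at 11.87 against 10.11 to 10.58 on the others, and 0.57 in Lhr-intact ovaries.

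Of 19 genes of the cAMP response and immediate early list, which cAMP signalling of LH and FSH receptors can induce, 4 were narrower: Egr1, Ier2, Dusp1 and Sik1. Of the 4, 2 were detected on all 13 arrays. Dusp1, a phosphatase that switches off MAP kinases, stood at 8.75, 9.03, 9.35 and 9.18 in Fshr-CAM/Lhr-null (8.95 in replicate 4), at 12.74, 10.56, 10.26 and 10.97 in Fshr-CAM and at 12.25, 11.07, 12.47 and 11.78 in wild type. Fshr-CAM 1, wild type 1 and wild type 3 were the highest arrays. Ier2, an immediate early gene, was near background on most arrays and owed its Lhr-intact SD of 0.61 to Fshr-CAM 3, at 6.51. Egr1, a transcription factor induced within minutes of a stimulus, had an SD of 0.21 in Fshr-CAM/Lhr-null and 0.59 in Lhr-intact ovaries, with levels of 11.58 to 12.04 in Fshr-CAM/Lhr-null, 11.40 to 12.41 in Fshr-CAM and 11.24 to 12.86 in wild type. The list's median SD was 0.26 in Fshr-CAM/Lhr-null, 0.38 in Fshr-CAM and 0.28 in wild type, and its count was 2 without Fshr-CAM 3 or without wild type 2.

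The cAMP response element, the site that CREB proteins bind, was looked for in promoters as the letters TGACGTCA on both strands, in 250 bases before to 50 after the transcription start as given by RefSeq for GRCm38.p6. Among genes with a promoter in that table, 9 of 410 narrower genes (2.20%) held it, against 320 of 9548 measured genes (3.35%). Over all 32851 promoters of the table the share was 1.79%. Of the 14 matched genes of the cAMP list, Dusp1 alone held a match. Of the 12 genes with the largest difference of SD, only Aatk, Bmper, Ccng2, Cdkn2b, Cplx1 and Nacad had a promoter in that table. Cdkn2b alone of these held a match, and the others of the 12 could not be searched. The 250 bases before the start are shown for Dusp1 and Cdkn2b, with the match in capitals. They were the narrower genes with a match among those chosen by the naming rule given with the processing. The other narrower genes with a match are not shown. Both genes lie on the minus strand, and the stretches, at chr17:26508473-26508722 for Dusp1 and chr4:89311033-89311282 for Cdkn2b, are written 5′ to 3′ in the direction of transcription.
Dusp1: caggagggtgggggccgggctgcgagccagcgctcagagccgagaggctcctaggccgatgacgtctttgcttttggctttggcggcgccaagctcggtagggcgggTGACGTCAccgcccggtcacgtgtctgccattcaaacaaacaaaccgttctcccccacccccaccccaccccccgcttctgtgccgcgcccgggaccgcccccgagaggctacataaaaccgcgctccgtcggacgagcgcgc
Cdkn2b: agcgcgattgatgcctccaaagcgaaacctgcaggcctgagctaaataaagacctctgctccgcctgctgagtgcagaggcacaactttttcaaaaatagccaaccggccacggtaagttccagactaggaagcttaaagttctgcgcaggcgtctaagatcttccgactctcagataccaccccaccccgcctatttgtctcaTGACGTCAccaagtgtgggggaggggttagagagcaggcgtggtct
The match starts 143 bases before the start in Dusp1 and 46 bases before it in Cdkn2b. Pdlim3, a gene with a wider spread, held a match as well. The match is a description of these letters, and narrower genes did not hold it at a higher share than measured genes.

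Genes named for the largest difference of SD, Lhr-intact over Fshr-CAM/Lhr-null, among those detected on all 13 arrays fell into recurring patterns over the Lhr-intact arrays. In one, Fshr-CAM 1, wild type 1 and wild type 3 were high. Bace2, a protease related to the one that cleaves the amyloid precursor protein, stood at 8.07, 7.71, 8.20 and 7.57 in Fshr-CAM/Lhr-null (7.39 in replicate 4), at 11.40, 8.87, 8.72 and 9.43 in Fshr-CAM and at 11.68, 9.66, 11.67 and 8.56 in wild type. Both other Bace2 probes gave the same direction, with SDs of 0.15 and 0.27 in Fshr-CAM/Lhr-null and 1.39 and 1.05 in Lhr-intact ovaries. Npb, a neuropeptide, stood at 5.46 to 5.67 in Fshr-CAM/Lhr-null (6.79 in replicate 4), at 9.08, 5.34, 6.17 and 6.23 in Fshr-CAM and at 8.39, 5.93, 8.60 and 5.68 in wild type. Apof, an apolipoprotein, Insl6, a relaxin family peptide, Aatk, a kinase, and Unc13d, a vesicle priming protein, had the same highest 3 arrays, with Fshr-CAM/Lhr-null SDs of 0.15 to 0.27 and Lhr-intact SDs of 1.27 to 1.58. With replicate 4 included the Fshr-CAM/Lhr-null SDs of Apof, Insl6 and Unc13d were 0.34, 0.47 and 0.53, and that of Aatk stayed at 0.15.

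Ccng2, a cyclin G that is linked to growth arrest, split the Lhr-intact arrays into separate sets. It stood at 8.30, 8.39, 8.42 and 9.21 in Fshr-CAM/Lhr-null (8.24 in replicate 4), at 9.39, 5.96, 5.77 and 6.23 in Fshr-CAM and at 5.52, 8.32, 5.81 and 9.03 in wild type. Wild type 1 and 3 were low together, as they were high together for Bace2, while Fshr-CAM 1 was high for both genes. Cdkn2b, which encodes the CDK inhibitor p15, stood at 5.98, 5.95, 5.72 and 6.24 in Fshr-CAM/Lhr-null (6.17 in replicate 4), at 10.57, 10.47, 9.90 and 8.37 in Fshr-CAM and at 8.36, 10.86, 9.34 and 11.65 in wild type. This order follows that of Akr1c18 in having wild type 1 and 3 below wild type 2 and 4, and Fshr-CAM 4 lowest in its genotype.

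The remaining genes of this set followed other orders. Bmper, a modulator of BMP signalling, was at 7.27 to 7.41 in Fshr-CAM/Lhr-null (8.14 in replicate 4), at 10.47, 7.55, 7.38 and 7.89 in Fshr-CAM and at 7.42 to 8.76 in wild type, so its spread came mostly from Fshr-CAM 1. Nacad stood at 5.20 to 6.12 in Fshr-CAM/Lhr-null, at 9.33, 7.68, 6.81 and 5.65 in Fshr-CAM and at 8.72, 7.60, 6.49 and 5.45 in wild type. It thus fell from replicate 1 to replicate 4 in each Lhr-intact genotype, and its lowest Fshr-CAM/Lhr-null value was also on replicate 4. Whether replicate numbers share a cause was not tested. Cplx1, a regulator of vesicle fusion, stood at 5.72 to 6.11 in Fshr-CAM/Lhr-null, at 7.87 in Fshr-CAM 4 and at 7.90, 9.28 and 8.59 in wild type 1, 3 and 4, against 5.61 to 6.69 on the other Lhr-intact arrays. The arrays that stood out thus differed from gene to gene.

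Genes that were not detected on every Fshr-CAM/Lhr-null array reached the largest SDs. Rln1, the hormone relaxin, stood at 4.45 to 4.88 in Fshr-CAM/Lhr-null, at 14.77, 6.11, 9.47 and 4.43 in Fshr-CAM and at 4.52 to 5.03 in wild type. It was therefore high on Fshr-CAM arrays only, 3 of 4 of them, and wild type ovaries were as low as Fshr-CAM/Lhr-null ones. Onecut2, a transcription factor, stood at 4.47 to 4.83 in Fshr-CAM/Lhr-null, at 7.94, 10.84, 10.96 and 8.56 in Fshr-CAM and at 7.62, 12.19, 9.36 and 11.70 in wild type. Plekhg4 stood at 4.94 to 5.42 in Fshr-CAM/Lhr-null, at 7.33, 9.78, 9.20 and 8.36 in Fshr-CAM and at 6.66, 10.52, 7.83 and 10.62 in wild type. In both genes Fshr-CAM 1 and 4 lay below Fshr-CAM 2 and 3, and wild type 1 and 3 below wild type 2 and 4.

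The count of narrower oocyte genes rested on 1 array. Of 22 measured, 13 were narrower in Fshr-CAM/Lhr-null and 0 wider, and without Fshr-CAM 1 the count was 0 (8 with Fshr-CAM/Lhr-null replicate 4). Without Fshr-CAM 1 the list's Lhr-intact median SD was 0.42, against 0.214 over all genes, and its median log2 SD ratio −0.70 in place of −1.30. Bmp15, an oocyte growth factor, stood at 10.17, 10.66, 10.50 and 10.44 in Fshr-CAM/Lhr-null (11.22 in replicate 4), at 8.04, 9.93, 9.74 and 10.61 in Fshr-CAM and at 10.16, 9.60, 10.33 and 9.60 in wild type. Padi6, a protein of the egg cytoplasm, stood at 11.16, 11.83, 11.52 and 11.69 in Fshr-CAM/Lhr-null (11.88 in replicate 4), at 9.09, 10.67, 10.67 and 11.70 in Fshr-CAM and at 11.40, 10.69, 11.41 and 10.57 in wild type. Fshr-CAM 1 was the lowest array for both genes and for the mean of the list, which was 7.25 there and 8.27 to 8.92 in Fshr-CAM 2 to 4. The list mean was 8.59 to 9.02 in Fshr-CAM/Lhr-null (9.42 in replicate 4) and 8.18 to 8.80 in wild type.

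Granulosa cell genes had a median SD of 0.22 in Fshr-CAM/Lhr-null, 0.34 in Fshr-CAM and 0.38 in wild type, and 2 of 17 were narrower (4 without Fshr-CAM 2 or without Fshr-CAM 4), with 0 wider. Amh, the hormone of small growing follicles, stood at 7.90, 8.55, 8.58 and 8.11 in Fshr-CAM/Lhr-null (8.74 in replicate 4), at 6.14, 7.64, 7.16 and 8.002 in Fshr-CAM and at 7.30, 6.69, 8.43 and 7.91 in wild type. The lowest Fshr-CAM array was Fshr-CAM 1, as for oocyte genes. Nr1h4, the bile acid receptor, was wide in wild type, where replicate 4 stood at 9.65 and the others at 7.84 to 8.27, and lower elsewhere, at 6.54 to 7.19 on the 5 Fshr-CAM/Lhr-null arrays and 7.47 to 8.31 in Fshr-CAM.

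**Figure D4:**
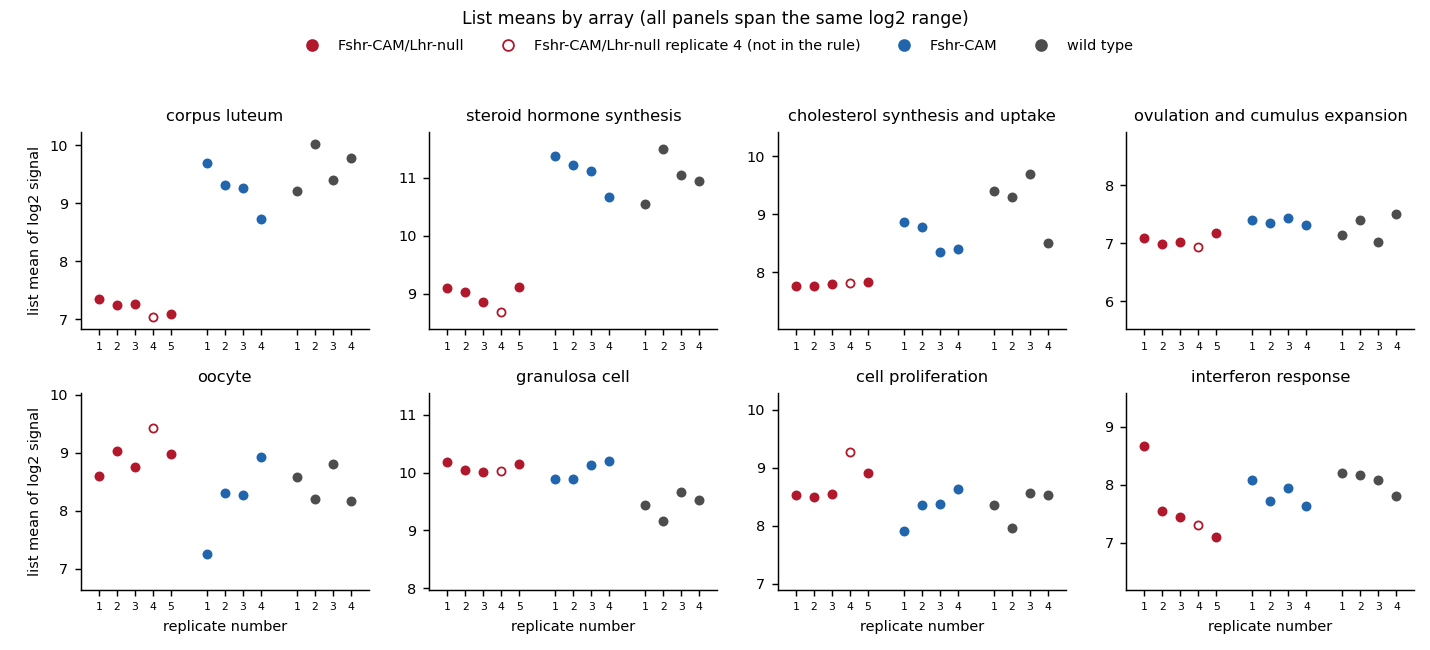
Mean log2 signal of 8 gene lists (vertical, every panel spanning the same log2 range) on each array, by replicate number (horizontal), with Fshr-CAM/Lhr-null in red (open symbol for replicate 4), Fshr-CAM in blue and wild type in grey. The cholesterol mean runs from 7.75 to 7.84 in Fshr-CAM/Lhr-null and from 8.49 to 9.69 in wild type, the oocyte mean is low on Fshr-CAM 1 and the interferon mean is high on Fshr-CAM/Lhr-null 1.

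Cell proliferation genes gave 0 narrower and 0 wider genes of 21, and up to 3 narrower with 1 Lhr-intact array left out (Fshr-CAM 2, Fshr-CAM 3, wild type 1 or wild type 4). Their median SD was 0.18 in Fshr-CAM/Lhr-null, 0.42 in Fshr-CAM and 0.37 in wild type, and 2 had an Lhr-intact SD of at least 0.5. The median log2 SD ratio was −0.90 with Fshr-CAM/Lhr-null 1, 2, 3 and 5 and 0.06 when replicate 4 was included, where the mean of the list stood at 9.27, outside the range of 8.50 to 8.91 seen in replicates 1, 2, 3 and 5. Tpx2, a spindle protein, had an SD of 0.60 in Fshr-CAM/Lhr-null and 0.58 in Lhr-intact ovaries. Pcna, the sliding clamp of DNA replication, had 0.85 and 0.52. The genes of the list with the largest Lhr-intact SD therefore varied as much without Lhr.

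Vessel, matrix and muscle lists held 1 narrower gene each, against 4.57% of all genes, and counts of 1 say nothing particular about these lists. Pecam1, an adhesion molecule of endothelial cells, was the narrower gene among 17 endothelial genes (SD 0.11 in Fshr-CAM/Lhr-null and 0.58 in Lhr-intact ovaries), with levels of 7.19 to 7.59 on the 5 Fshr-CAM/Lhr-null arrays, 7.50 to 9.07 in Fshr-CAM and 7.56 to 8.47 in wild type. Its other probes had SDs of 0.12 and 0.25 in Fshr-CAM/Lhr-null and 0.18 and 0.43 in Lhr-intact ovaries and did not meet the rule, and without Fshr-CAM 1 the count of endothelial genes was 0. Nos3, the endothelial nitric oxide synthase, had an SD of 0.18 in Fshr-CAM/Lhr-null and 0.45 in Lhr-intact ovaries, and Vwf, the von Willebrand factor, was wider with 0.61 and 0.22. Timp1, an inhibitor of metalloproteinases, was the narrower gene of 14 matrix genes (SD 0.24 in Fshr-CAM/Lhr-null and 0.88 in Lhr-intact ovaries), with 9.43 to 9.98 in Fshr-CAM/Lhr-null, 11.39 to 13.22 in Fshr-CAM and 10.76 to 12.88 in wild type. Col3a1, a fibrillar collagen, varied as much in each group, with 0.81 in Fshr-CAM/Lhr-null and 0.87 in Lhr-intact ovaries. Of 9 smooth muscle genes Lmod1, an actin nucleator, was narrower (0.06 in Fshr-CAM/Lhr-null and 0.53 in Lhr-intact ovaries), though replicate 4 stood at 6.46 against 6.98 to 7.12 and the count was 0 with it, without wild type 1 or without wild type 4, and Des, the filament protein desmin, was not (0.59 and 0.44).

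Immune and blood genes varied in every genotype. Of 13 macrophage genes, Ctss, a lysosomal protease, was narrower (0.31 in Fshr-CAM/Lhr-null and 0.93 in Lhr-intact ovaries) and C1qb, a complement subunit, wider (0.54 and 0.21). The median SD of the macrophage list was 0.46 in Fshr-CAM/Lhr-null, 0.34 in Fshr-CAM and 0.33 in wild type. Fcgr3, an antibody receptor, stood at 8.58, 8.31, 8.79 and 6.45 in Fshr-CAM/Lhr-null (6.73 in replicate 4), at 7.81 to 8.75 in Fshr-CAM and at 6.98 to 9.22 in wild type. Of 4 lymphocyte genes 0 were narrower or wider, and the T cell genes Cd3g and Cd3d had SDs of 0.46 and 0.44 in Fshr-CAM/Lhr-null, against 0.48 and 0.40 in Lhr-intact ovaries. Of 3 red blood cell genes 0 were narrower or wider, with a median SD of 0.58 in Fshr-CAM/Lhr-null, 1.00 in Fshr-CAM and 0.84 in wild type. The globin genes Hba-a1 and Hbb-b2 had SDs of 0.80 and 0.58 in Fshr-CAM/Lhr-null and 1.01 each in Lhr-intact ovaries.

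Interferon response genes went the other way. Of 8 measured, 0 were narrower and 3 wider in Fshr-CAM/Lhr-null (Gbp2, Ifit3 and Rsad2), with a median SD of 0.64 in Fshr-CAM/Lhr-null, 0.27 in Fshr-CAM and 0.34 in wild type. Gbp2, an interferon-induced GTPase, passed the test of spread (deviation 0.75 ± 0.17 SE larger, limma adjusted p = 0.0223). It stood at 12.57, 9.84, 10.26, 10.56 and 9.78 in Fshr-CAM/Lhr-null 1 to 5, at 10.26 to 10.67 in Fshr-CAM and at 10.19 to 10.42 in wild type. Ifit3, an antiviral protein, stood at 9.40 on Fshr-CAM/Lhr-null 1 and at 6.29 to 7.66 on the other 4. The spread thus came mostly from Fshr-CAM/Lhr-null 1, whose mean over the list, 8.67, lay above the 7.10 to 7.54 of replicates 2 to 5. Bst2 and Usp18, further interferon-induced genes, were not wider, with SDs of 0.33 and 0.37 in Fshr-CAM/Lhr-null and 0.45 and 0.42 in Lhr-intact ovaries, although the other Usp18 probe had 0.42 in Fshr-CAM/Lhr-null and 0.27 in Lhr-intact ovaries.

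The other genes that passed as wider against the pooled Lhr-intact arrays were Klk1b21, Myh6, Entpd2, Ppp2r2b, Ecrg4, Pdlim3 and Txnrd3. Myh6, a cardiac myosin heavy chain, stood at 5.92, 6.84, 7.74, 8.75 and 7.16 in Fshr-CAM/Lhr-null 1 to 5 and at background in Fshr-CAM (4.45 to 4.75) and wild type (4.37 to 4.48), with a deviation 0.79 ± 0.15 SE larger and an adjusted p of 0.000972 by limma. Its arrays did not overlap between Fshr-CAM/Lhr-null and Lhr-intact, and a gene at background in Lhr-intact ovaries has little room to vary there. Myh6 was detected on 5 Fshr-CAM/Lhr-null, 0 Fshr-CAM and 0 wild type arrays, so it passed the detection filter through Fshr-CAM/Lhr-null alone. Its p-value therefore says no more than that it was expressed there and at background elsewhere. Klk1b21, a kallikrein protease, stood at 7.54, 8.25, 9.85, 4.86 and 5.16 in Fshr-CAM/Lhr-null 1 to 5, against 4.94 to 5.09 in Fshr-CAM and 4.65 to 4.83 in wild type (1.83 ± 0.35 SE, limma adjusted p = 0.000972). It was thus above background on Fshr-CAM/Lhr-null 1, 2 and 3 and close to it elsewhere. Klk1b21 was detected on 4 Fshr-CAM/Lhr-null, 3 Fshr-CAM and 0 wild type arrays. Without Fshr-CAM/Lhr-null it would not have passed the filter, and its p-value has the same limit.

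Entpd2, an enzyme that cleaves extracellular ATP, stood at 6.73, 6.84, 7.47, 7.41 and 6.44 in Fshr-CAM/Lhr-null 1 to 5, against 6.49 to 6.57 in Fshr-CAM and 6.41 to 6.51 in wild type (0.37 ± 0.08 SE, limma adjusted p = 0.0114). Pdlim3, a muscle Z-disc protein, stood at 7.98 to 10.29 in Fshr-CAM/Lhr-null, against 8.75 to 8.92 in Fshr-CAM and 8.24 to 8.68 in wild type (0.54 ± 0.13 SE, adjusted p = 0.0405). Ppp2r2b, a phosphatase subunit, and Txnrd3, a thioredoxin reductase, passed with smaller differences of 0.39 ± 0.09 and 0.21 ± 0.05 (SE, limma adjusted p = 0.0156 and 0.0467). Lhr-intact SDs of these 4 genes were 0.05 to 0.15, at or below the median over all genes. Ecrg4, a secreted peptide of epithelia, rested on 1 array: it stood at 10.99 on Fshr-CAM/Lhr-null 3 and at 6.09 to 6.78 on the other 4, against 6.12 to 6.86 in Fshr-CAM and 6.12 to 6.36 in wild type (1.47 ± 0.35 SE, limma adjusted p = 0.0405).

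Fshr-CAM/Lhr-null 3 also decided other wide genes. Ovgp1, the oviduct glycoprotein, stood at 10.46 there and at 6.30 to 6.82 on the other 4 Fshr-CAM/Lhr-null arrays, against 6.34 to 6.70 in Fshr-CAM and 6.23 to 7.42 in wild type. Csrp1, a muscle LIM protein, stood at 5.26 there and at 10.42 to 11.35 on the other 4, against 9.67 to 11.21 in Fshr-CAM and 9.82 to 11.02 in wild type. Without that array the log2 SD ratios of Ecrg4, Ovgp1 and Csrp1 were −2.09, −0.53 and −0.33, against 3.24, 2.31 and 2.27 with it. The mean of the 12 measured oviduct and ciliated epithelium genes was 6.83 on Fshr-CAM/Lhr-null 3 and 6.11 to 6.22 on the other 4 arrays of that genotype, 5.90 to 6.29 in Fshr-CAM and 6.01 to 6.18 in wild type. Of these 12 genes 1 was narrower and 2 were wider, Ovgp1 and the dynein light chain Dynlrb2. Its cilia genes Rsph1 and Dnali1 had SDs of 0.48 and 0.46 in Fshr-CAM/Lhr-null and 0.51 and 0.42 in Lhr-intact ovaries. The part of oviduct RNA in these values was not tested.

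Markers of other cells and tissues also differed between arrays of one genotype. Upk1b, a uroplakin of the surface epithelium, stood at 9.99, 5.12, 8.42 and 8.36 in Fshr-CAM/Lhr-null (8.09 in replicate 4), with SDs of 2.04 in Fshr-CAM/Lhr-null and 1.24 in Lhr-intact ovaries, and Krt19, a keratin, had SDs of 0.89 and 0.51. Of 10 surface epithelium genes 0 were narrower or wider. Adipoq, the fat hormone adiponectin, had SDs of 0.95 in Fshr-CAM/Lhr-null and 1.03 in Lhr-intact ovaries, Plin1, a fat droplet protein, had 0.17 and 0.45, and of 4 adipocyte genes Lep, the hormone leptin, was wider, with 6.65 on Fshr-CAM/Lhr-null 3 and 4.89 to 5.79 on the other 4. Prm1, a protamine of sperm, stood at 4.87 to 5.43 in Fshr-CAM/Lhr-null (6.40 in replicate 4), at 7.98 in Fshr-CAM 4 and at 8.72 and 7.70 in wild type 3 and 4, against 4.58 to 5.10 on the other Lhr-intact arrays. All 3 measured spermatid genes were narrower, with SDs of 0.19 for Tnp1 and 0.28 for Ldhc in Fshr-CAM/Lhr-null and 0.64 and 0.62 in Lhr-intact ovaries. With replicate 4 included 1 of the 3 was narrower and the list's median SD was 0.49 in place of 0.26, and 0 of the 3 were detected on all 13 arrays. Of 8 probed pituitary genes, 0 or 1 were detected on each of the 13 arrays.

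Heat shock and stress genes had 0 narrower and 0 wider of 12, and 4 narrower without Fshr-CAM/Lhr-null 5. The chaperone Hspa1a stood at 9.68, 10.39, 9.62 and 8.43 in Fshr-CAM/Lhr-null (7.36 in replicate 4), at 7.71, 10.24, 8.92 and 8.40 in Fshr-CAM and at 7.53, 9.09, 7.47 and 7.02 in wild type. Its SDs were 0.81 in Fshr-CAM/Lhr-null and 0.99 in Lhr-intact ovaries, and both other probes of the gene had SDs slightly larger in Fshr-CAM/Lhr-null. Hspa5, a chaperone of the endoplasmic reticulum, had 0.79 and 0.77. Stress genes therefore varied within each genotype.

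On the 1 probe that stood for each gene, some genes fell into a high and a low set of arrays inside a genotype. Described after the values were seen, with a gap of at least 2 on the log2 scale between the sets, there were 25 such genes in 17 patterns, of which 3 patterns were shared by more than 1 gene. Aph1b, Atp2c1, Lrrc2, Me1 and Wdr82 were all low on Fshr-CAM/Lhr-null 2 and 3, Fshr-CAM 4 and wild type 3 and high on the other 9 arrays. The other probes of Wdr82 and Atp2c1 did not show this split, so for these genes it may belong to the probe. All 5 genes of this pattern lie on chromosome 9 in GRCm38.p6, which holds 5.82% of the measured genes with a chromosome. Me1, the cytosolic malic enzyme, stood at 9.65, 4.78, 4.71, 8.33 and 9.85 in Fshr-CAM/Lhr-null 1 to 5, at 12.22, 10.76, 10.62 and 4.57 in Fshr-CAM and at 11.20, 10.72, 5.17 and 12.23 in wild type.

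H2-Aa and H2-Eb1, which encode MHC class II chains and lie on chromosome 17, and Lipa, the lysosomal acid lipase, and Cbwd1, both on chromosome 19, were low on Fshr-CAM/Lhr-null 4 and 5 and Fshr-CAM 1 and high on the other 10. H2-Eb1 stood at 5.48, 5.10 and 4.82 on those 3 arrays and at 8.73 to 10.60 elsewhere. Klk1b21 and Lcn2, a siderophore-binding lipocalin, formed the third shared pattern, high on Fshr-CAM/Lhr-null 1, 2 and 3 alone, where Lcn2 stood at 9.38, 8.68 and 10.78 against 4.99 to 6.59 on the other 10. Of 13 other probes of the 25 genes, 3 showed the same split, those of Ctsc and Lipa. Of the 25 genes, 3 were narrower (Ccng2, Ctsc and Pdrg1) and 5 wider in Fshr-CAM/Lhr-null, so such genes made a small part of the 542 and 125. The mice came from a cross of 2 strains whose share in each animal the labels do not give, and its part in these sets was not tested.

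**Figure D5:**
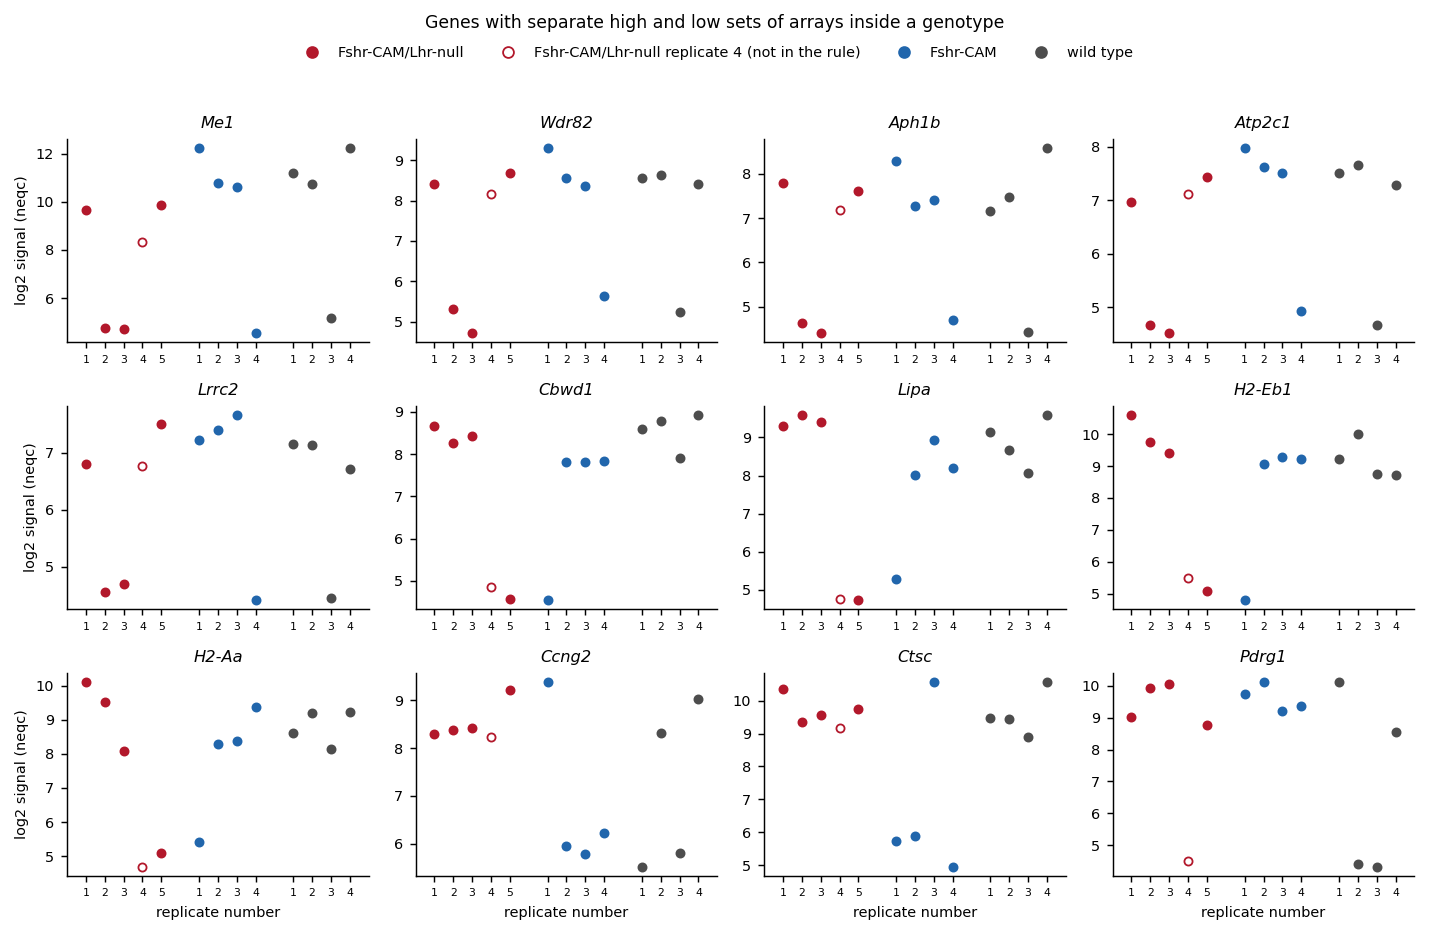
Log2 signal (vertical) of 12 genes with separate high and low sets of arrays, by replicate number (horizontal), with Fshr-CAM/Lhr-null in red (open symbol for replicate 4), Fshr-CAM in blue and wild type in grey. The first 5 genes are low on the same 4 arrays and the next 4 genes on the same 3 arrays.

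Further genes were named for a wider spread without Lhr. Mff, a mitochondrial fission factor, stood at 7.92, 5.24, 5.12 and 9.39 in Fshr-CAM/Lhr-null (8.84 in replicate 4), against 7.93 to 8.96 in Fshr-CAM and 8.50 to 9.30 in wild type, and its other probe had SDs of 0.21 in Fshr-CAM/Lhr-null and 0.22 in Lhr-intact ovaries. H2-T10, an MHC class I gene, stood at 5.86, 5.01, 8.01 and 8.75 in Fshr-CAM/Lhr-null (9.14 in replicate 4), against 8.31 to 9.69 in Fshr-CAM and 8.81 to 9.03 in wild type. Its other probes had SDs of 0.41 and 1.13 in Fshr-CAM/Lhr-null and 0.13 and 0.66 in Lhr-intact ovaries, did not show the same high and low sets, and, MHC genes having near-identical relatives, a probe may read more than 1 of them. Ptgds, a prostaglandin D synthase, stood at 7.26, 6.36, 9.12 and 4.69 in Fshr-CAM/Lhr-null (6.27 in replicate 4), against 5.77 to 6.92 in Fshr-CAM and 6.45 to 6.54 in wild type. Over all named genes with other kept probes, 19 of 23 other probes in 17 genes gave the same direction.

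The Lhr-null arrays, which also lack Lhr and have no Fshr-CAM, were outside the comparison, and on Lhr-null 1 all 8 probed pituitary genes were detected. The other 3 carried markers of other tissues too: the mean of 15 oviduct genes was 7.57, 7.54 and 8.80 on Lhr-null 2, 3 and 4, against at most 6.43 on the 13 arrays, and the mean of 7 spermatid genes was 9.32 on Lhr-null 2, against at most 5.61. Their part in the counts of spread was not tested. Over Lhr-null 2, 3 and 4, 495 genes (4.18%) were narrower and 599 (5.06%) wider than in Lhr-intact ovaries, so that wider genes outnumbered narrower ones there. Akr1c18 stood at 5.62, 7.13 and 5.03 on these 3 arrays, below every Lhr-intact array. The 3 arrays leave 2 degrees of freedom for these SDs, and the difference between the Lhr-null and Fshr-CAM/Lhr-null counts was not tested.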

How the data were processed

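Ovary RNA was measured on Illumina bead arrays of the MouseWG-6 v2.0 design. The deposited tables give probe intensity values made with GenomeStudio 1.7.0, per the submitters' processing notes, without background correction, per the file headers. They also give, per the file headers, a bead count and a detection p-value per probe on every array. The median bead count per probe was 41 to 43, and with 4 or 5 arrays a genotype the number of arrays limits the precision.

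Intensities of all 17 arrays were corrected and normalised with neqc (limma 3.58.1, R 4.3.3, offset 16). Probes with 1 gene symbol detected at p under 0.05 on at least 4 of 13 arrays were kept, and the brightest kept probe stood for its gene. The main test was limma (lmFit, eBayes with trend) on each array's absolute deviation from its genotype mean, scaled for group size, with Benjamini-Hochberg adjustment at 0.05 over 11847 genes. The test was checked on simulated data. P-values judge a difference in deviation between genotypes against the scatter of deviations over these arrays. The spread between samples may itself be technical.

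The arrays compared, the 22 gene lists and the tests were chosen with earlier results of these data known. Named genes were the 12 with the largest difference of SD among genes detected on all 13 arrays, the 6 with the largest among genes not detected on every Fshr-CAM/Lhr-null array, the 8 with the largest difference the other way, up to 2 genes of each list with the largest Lhr-intact SD, genes past the test, and Fshr. Other genes were named after their values were seen. Alternatives changed the normalisation, the filter, the probe rule, the deviation, the eBayes setting, the replicate block and the arrays. Plots were drawn with matplotlib 3.10.9.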

Additional observations from a re-analysis of the deposited data

Results flagged for a closer look

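Of 273 groups of arrays examined, 24 held an array far from the others of its genotype, and chance flags about 1 in 20 groups. Of these groups 207 were of named genes, many named for a wide spread on these arrays, so the share found is not to be read against that rate. Fshr-CAM/Lhr-null 4 stood apart for Fshr (9.71), Cyp17a1 (11.63), Star (4.77) and Lmod1 (6.46) on the low side and for Akr1c18 (6.31), Npb (6.79) and Bmper (8.14) on the high side. Fshr-CAM/Lhr-null 3 stood apart for Csrp1 (5.26), Ecrg4 (10.99), Ovgp1 (10.46), Des (8.59) and the oviduct list mean (6.83). Fshr-CAM/Lhr-null 1 stood apart for Gbp2 (12.57) and the interferon list mean (8.67), and Fshr-CAM/Lhr-null 5 for Ccng2 (9.21).

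Among Lhr-intact arrays, Fshr-CAM 1 was far above the others of its genotype for Ccng2 (9.39), Bmper (10.47) and Hspa5 (8.23). Fshr-CAM 4 was low for Akr1c18 (11.27) and Star (7.95) and high for Prm1 (7.98). Wild type 4 was high for Mff (9.30), Col3a1 (10.49) and Des (8.21).

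The Lhr-null arrays, outside the comparison, carried list means above those of the wild type arrays. The mean of the pituitary genes was 13.41 on Lhr-null 1. The spermatid mean was 9.32 on Lhr-null 2 and the oviduct mean, over all 15 probed genes, 8.80 on Lhr-null 4.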

How the results depend on the processing

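The number of genes narrower in Fshr-CAM/Lhr-null, 542, lay between 362 and 567 under the other normalisations, filters and probe rule, and was 539 without the genes in separate high and low sets. The number wider, 125, was 78 over genes detected on all 13 arrays, 67 with median-centred signals and 79 with the authors' quantile-normalised values and 188 with Fshr-CAM/Lhr-null replicate 4. Leaving out 1 array gave 373 to 734 narrower and 105 to 286 wider genes. The Fshr-CAM/Lhr-null median SD, 0.177, was 0.133 with no detection filter, 0.139 with the authors' values, 0.209 with replicate 4 (an alternative chosen after seeing the data) and 0.150 to 0.183 with 1 array left out. The Lhr-intact median, 0.229, was 0.195 with median-centred signals, 0.170 with no filter, 0.181 with the authors' values and 0.214 to 0.234 with 1 array left out. The difference in deviation per array was 0.000181 with no filter, against −0.0151, and −0.0331 to −0.000504 with 1 array left out. Lists with a smaller median SD in Fshr-CAM/Lhr-null numbered 15 to 19 with 1 array left out. With replicate 4 the proliferation list's median log2 SD ratio was 0.060 and that of Fshr 1.25. Without Fshr-CAM/Lhr-null 3 the ratios of Csrp1, Ecrg4 and Ovgp1 were −0.33, −2.09 and −0.53, and with any other single array left out they reached 2.57, 4.18 and 2.71.

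Counts from the limma test of spread moved under most alternatives, and the cause was not tested beyond what the settings state. Fshr-CAM/Lhr-null against pooled Lhr-intact (0 narrower, 8 wider) gave 3 narrower with median-centred signals, 4 with no filter, 15 without trend and with robust eBayes, and 4 with the authors' values. It gave 0 wider with deviations from the median or squared deviations, 5 with the mean of a gene's probes, 97 with no filter and 4 without trend. With 1 array left out it gave 0 to 8 narrower and 3 to 35 wider. Against Fshr-CAM (28 narrower, 6 wider) it gave 6 and 0 over genes detected on all arrays, 0 and 0 from the median, 73 and 41 with no filter, 11 and 1 without trend, 1 and 0 with squared deviations, and 8 to 148 narrower and 3 to 14 wider with 1 array left out. Against wild type (19 narrower, 6 wider) it gave 0 and 0 over genes detected on all arrays, 0 and 0 from the median, 39 and 34 with no filter, and 0 and 0 with squared deviations. It also gave 35 narrower without trend, 2 wider with median-centred signals, and 1 to 77 narrower and 0 to 13 wider with 1 array left out. Fshr-CAM against wild type (11 narrower, 12 wider) gave 1 and 1 over genes detected on all arrays, 0 and 0 from the median, 21 and 31 with no filter, 0 and 1 with squared deviations, 5 wider without trend, and 7 to 29 narrower and 6 to 68 wider with 1 array left out.

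The labels do not say that replicate numbers pair samples. Deviations of same-numbered arrays correlated across genes at r = −0.06 to 0.32 over 12 pairs, 4 of them above 0.1. With the replicate block the test gave 0 narrower and 7 wider genes against pooled Lhr-intact, 12 and 3 against Fshr-CAM, and 1 and 1 against wild type. Signals near background limit how far a gene can vary, and 4 or 5 arrays a genotype limit every SD.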
